A study of Arabidopsis thaliana with 24 samples.

Results

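The comparison described here is a difference between differences in seedlings of Arabidopsis thaliana: the effect of the vcs-6 mutation minus the effect of overexpressing DNE1. For each gene the effect of vcs-6 was the mean log2 level in 3 vcs-6 libraries minus that in the wild-type libraries of batches 4 to 6. The effect of overexpression was the mean log2 level in 6 libraries of overexpressors minus that in the wild-type libraries of batches 1 to 3, with both lines weighted alike. A positive value therefore means that a transcript stood higher in vcs-6, relative to its own wild type, than in the overexpressors relative to theirs. The comparison used 15 of the 24 RNA-seq libraries of the study, and a change in either arm, or in either set of wild-type libraries, can move it.

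Each library came from whole seedlings aged 14 days, in the Col0 accession. The groups of 2018 were wild type (WT, batches 1 to 3, n = 3) and the overexpression lines DNE1_OE1 and DNE1_OE2 (the same batches, n = 3 each). Those of 2019 were wild type (batches 4 to 6, n = 3) and the line vcs-6, labelled with the same batches (n = 3). The genotype of vcs-6 is given as vcs. Both overexpressors carry P35S-GFP::DNE1, so a GFP fusion of DNE1 is made under the cauliflower mosaic virus 35S promoter on top of the plants' own DNE1. They are 2 lines of 1 construct, and vcs-6 is represented by 1 allele. The labels name no treatment. The triplicates are stated to be biological. The deposited columns headed vcs6 carry no replicate number, so they are treated as unnumbered replicates. They could not be paired by batch with their wild type. The mutant and the overexpressors come from different years, so what separates the years beyond their wild types cannot be told apart from what separates the lines. Read totals ran from 34405700 to 70561391 over the 15 libraries, and leaf mesophyll and root markers were read in every group.

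Messenger RNAs in plants are usually degraded after their poly(A) tail is shortened. The cap is then removed by the decapping enzyme DCP2 with its activator DCP1 on the scaffold VARICOSE (VCS), and the exonuclease XRN4 degrades the body from the uncapped end. DNE1 is an endonuclease of the NYN domain type that associates with this decapping complex and cuts mRNAs internally. Decapping acts on many short-lived transcripts, and seedlings without VCS are severely impaired in early leaf and shoot development.

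DNE1 and VCS themselves were read first, since they check the labels. DNE1 (AT2G15560) had normalized counts (reads divided by a factor for each library) of 1136, 1049 and 965 in the vcs-6 libraries and 1056, 1054 and 1001.3 in their wild type. In the overexpressors the lowest, median and highest of 6 libraries were 15481, 17686 and 20296, against 1125, 1353 and 1329 in their wild type. All 6 overexpressor libraries thus stood far above every other library, while the vcs-6 libraries spanned the range of their wild type. The difference of effects for DNE1 was -3.80 ± 0.18 (log2 ± SE, limma adjusted p = 3.5e-11). VCS (AT3G13300) had 8989.6, 8952 and 10245 in the libraries labelled vcs-6 and 6681, 5372 and 6398 in wild type of the same year. In the overexpressors VCS ran at 4281, 5189 and 5710.1 (lowest, median, highest), against 6054, 5167 and 5395 in their wild type. The VCS count was therefore higher, not lower, in all 3 libraries labelled vcs-6, and the difference of effects was 0.74 ± 0.14 (adjusted p = 0.00049). Reads summed over the whole gene cannot show a disrupted transcript, and the label of these libraries is therefore unchecked.

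The test covered 22054 genes, those that reached 10 normalized counts in 3 or more of the 15 libraries, with limma on log2 of the normalized count plus 1. The difference of effects passed a Benjamini-Hochberg adjusted p under 0.05 for 7909 genes, or 35.9% of those tested. It was higher for 4060 genes (18.4%) and lower for 3849 (17.5%), and 9865 genes had an unadjusted p under 0.05. In the same model the vcs-6 effect passed for 11499 genes (52.1%) and the overexpression effect for 198 (0.898%). The effect of vcs-6 was the larger one in size for 7768 of the 7909 genes (98.2%), and for 7651 of them the vcs-6 effect passed as well. The overexpression effect passed for 117 of them, and both effects for 93. Among the called genes the difference therefore followed mainly the vcs-6 effect, as the plot of the effect of vcs-6 against that of overexpression shows. Over all genes tested the effects had a correlation of r = 0.35. Of the genes not called in the overexpressors, 1823 that rose and 1960 that fell in vcs-6 had no called difference. The median difference over all genes tested was 0.00 and the median among those that passed was 1.10 in size. The split between higher and lower calls was not stable. The higher share of the calls was 51.3%, against 62.4% with scaling by library size only (4627 higher, 2791 lower, with the median of all genes moved to 0.13), 47.9% with edgeR (3753 higher, 4088 lower) and 48.7% without the third vcs-6 column (3563 higher, 3757 lower). Wild type of batches 4 to 6 itself differed from wild type of batches 1 to 3 at 3987 genes (18.1% of those tested), among them 1719 (21.7%) of the 7909. The same wild-type libraries enter the difference of effects, so this overlap is not independent of it.

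**Figure D1:**
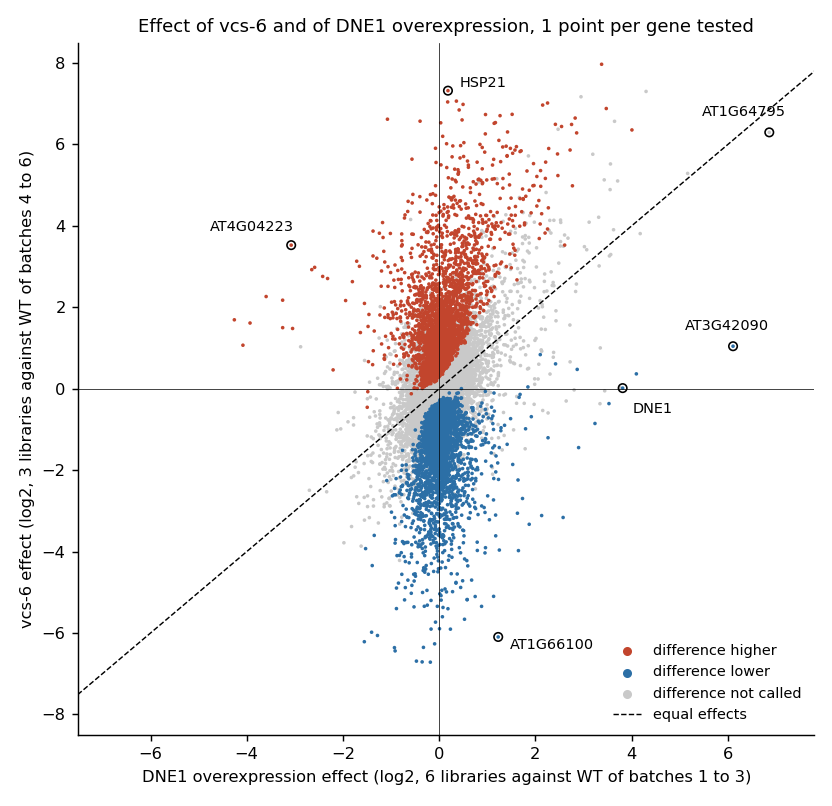
Each point is a gene tested, with the log2 effect of DNE1 overexpression on the horizontal axis and the log2 effect of vcs-6 on the vertical axis. Red and blue points passed the test of the difference (4060 higher, 3849 lower), grey points did not, and the dashed line marks equal effects. The cloud is taller than it is wide, with most coloured points close to the vertical axis.

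The 198 genes that passed in the overexpressors were followed into vcs-6. Of the 159 that rose there (0.721% of all tested), 135 (84.9%) also rose in vcs-6, against 26.3% of all genes tested. Another 2 fell in vcs-6 and 22 did not pass there. The 39 that fell in the overexpressors (0.177%) were divided: 12 also fell in vcs-6, 9 rose and 18 did not pass. Among the 159, the difference of effects was higher for 72, lower for 12 and not called for 75. The effects share no control library here, since each line has the wild type of its own year. They do share the spread estimate of each gene, taken over all 24 libraries. A gene with little spread thus passes more readily in both, and the calls are not independent. The count of genes that rose in the overexpressors leaned on the wild-type libraries of 2018: it was 57 without batch 1 of that wild type and 102 without batch 3. The main fit held no batch term, so shifts shared within a batch counted as spread. With the batch as a block 401 genes rose in the overexpressors and 113 fell, so a gene not passing in the main fit may pass there. The share that also rose in vcs-6 ran from 78.4% to 89.4% over these and the other settings, apart from 60% of 10 genes when a log2 change above 1 was required.

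Where both lines rose, vcs-6 usually rose further. Over the 135 genes the median log2 effect was 2.87 in vcs-6 and 1.47 in the overexpressors, and the median difference was 1.303. The difference was higher for 72, not called for 62 and lower for 1, the non-coding RNA AT3G29644 (-1.26 ± 0.44, adjusted p = 0.0308). MYB88, one of the pair of MYB factors that end the divisions of the stomatal lineage, is an example of the larger group, chosen after its values were seen. It had 2948, 3159 and 3892 in vcs-6 and 399, 456 and 358 in wild type of that year, while the overexpressors ran at 656, 819.5 and 891 against 313, 342 and 384. Every mutant and every overexpressor library lay above all 6 wild-type libraries, and the difference was 1.86 ± 0.21 (adjusted p = 1.6e-06). AT1G65150, a TRAF-like protein, had the smallest adjusted p among the 72. Its counts were 2958, 3462 and 2848 in vcs-6, 250.1, 299.6 and 228 in its wild type, 311, 334 and 362 in the overexpressors and 236, 226 and 221 in theirs, a difference of 3.02 ± 0.16 (adjusted p = 1.7e-10). FKBP12, an immunophilin, rose by 2.28 ± 0.11 in vcs-6 and 0.44 ± 0.09 in the overexpressors on the log2 scale, and AGAL2, an alpha-galactosidase, by 3.02 ± 0.11 and 0.61 ± 0.09. The overexpressors thus moved in these genes in the same direction by a smaller step.

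For the 62 genes that rose in both and whose difference was not called, the median difference was 0.36 with a median SE of 0.47. Their differences ran from -0.58 to 3.00, so the test could not separate the effects, which is not a showing that they are equal. FLA5, which encodes a fasciclin-like arabinogalactan protein of the cell surface, had 126, 199 and 162 in vcs-6 and 7.96, 7.55 and 15.05 in its wild type. The overexpressors had 41.3, 44.2 and 65.3 and their wild type 2.00, 3.18 and 3.85. The rise was 3.91 ± 0.36 and 3.62 ± 0.31 on the log2 scale, with a difference of 0.28 ± 0.48 (adjusted p = 0.687), although the level in vcs-6 was above that of every overexpressor library. CRK23, a cysteine-rich receptor-like kinase, had 105, 46.7 and 122.8 in vcs-6, 9.09, 5.03 and 2.74 in its wild type, 42.7, 52.1 and 75.6 in the overexpressors and 0.667, 7.41 and 0.963 in theirs. Its ranges in the mutant and in the overexpressors overlapped, and the difference was -0.37 ± 0.78 (adjusted p = 0.753). The RNA AT2G15555 had no read in wild type of 2019 and stood at 34.3, 19.6 and 34.9 in vcs-6. That mean was at least 23.7-fold higher, with the floor taken as 3 reads over those wild-type libraries. In the overexpressors it ran at 5.39, 13.5 and 39.1 against 0, 0 and 0.963. AT1G64795, of unknown function and overlapping a gene on the opposite strand, had the largest overexpression effect of the 159, with 563, 620.3 and 1109 in the overexpressors against 0, 20.12 and 9.63. In vcs-6 it had 236, 121 and 190.4 against 1.137, 1.26 and 1.37, the last from 3 reads in all, and the difference was -0.56 ± 1.04 (adjusted p = 0.712). These genes were chosen after their values were seen.

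**Figure D2:**
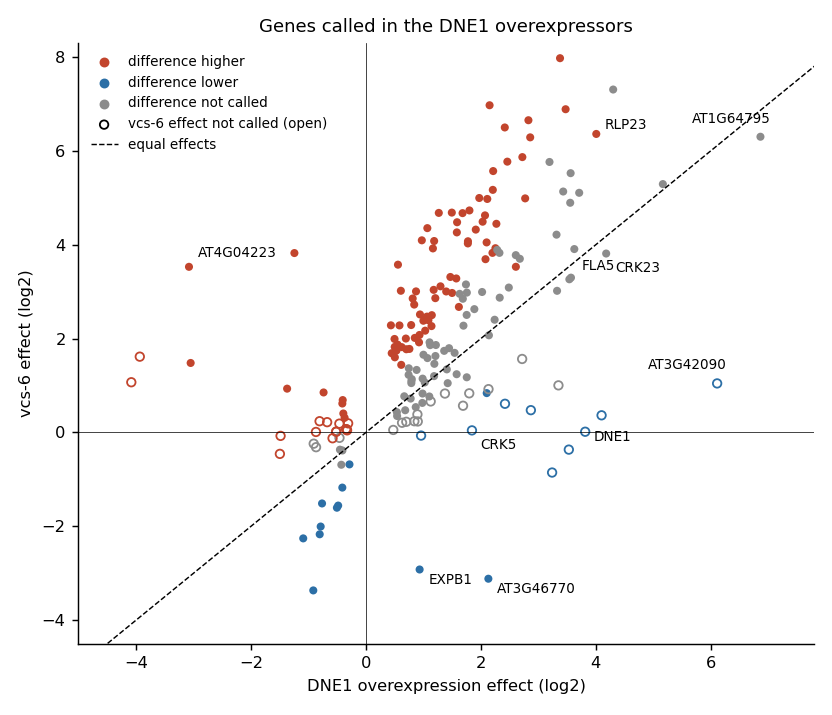
The 198 genes called in the DNE1 overexpressors, with the log2 effect of overexpression on the horizontal axis and of vcs-6 on the vertical axis; red and blue points passed the test of the difference, grey points did not, and open points did not pass in vcs-6. Most points on the right lie above 0 and, among these, most lie above the dashed line of equal effects.

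Cell-surface receptor families recurred by name among the genes that rose in both, a grouping made after the values were seen and not tested. Of 48 receptor-like proteins (RLP genes) tested, 10 rose in the overexpressors and 0 fell in limma (0 at an unadjusted p under 0.05), while 23 rose and 8 fell in vcs-6. Over all genes tested 0.721% rose in the overexpressors, and 26.3% rose and 25.9% fell in vcs-6. Those that rose in both were RLP41, RLP28, RLP23, RLP42, RLP49, RLP20, RLP50 and RLP43. RLP23, the receptor for a peptide of microbial NLP proteins, had 1568, 735 and 1877 in vcs-6 against 18.19, 25.2 and 6.84, and 96.4, 216 and 402 in the overexpressors against 10.01, 26.47 and 5.78. The rise was larger in vcs-6 by 2.35 ± 0.84 (adjusted p = 0.0337). Of 36 cysteine-rich receptor-like kinases (CRK genes), 6 rose in the overexpressors and 0 fell in limma (1 at an unadjusted p under 0.05), while 12 rose and 12 fell in vcs-6, shares near those of all genes. The difference was lower for 9 and higher for 3, with a median of -0.43 against 0.00 for all genes. Wild type of batches 4 to 6 stood above wild type of batches 1 to 3 for 10 of the 48 RLP and 9 of the 36 CRK genes, against 8.61% of all genes. Among these families 9 RLP and 4 CRK genes share over 20% of their 31-base words with another transcript, so reads may be split between copies.

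Some of the genes that rose in the overexpressors already stood higher in the wild type of 2019. Wild type of batches 4 to 6 was higher than wild type of batches 1 to 3 for 48 of the 159 (30.2%, against 8.61% of all genes) and lower for 4 (9.47% of all genes), with a median log2 gap of 0.48. For 35 of the 159 the overexpressors' mean did not exceed the highest wild-type library of 2019. For 93 the lowest overexpressor library did. Both this gap and the overexpression effect subtract wild type of batches 1 to 3. A low value there raises both, so part of the excess over all genes is built in. What part the year played in these rises was not tested.

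A further 24 genes passed in the overexpressors and in the difference but not in vcs-6: 9 rose and 15 fell in the overexpressors. AT3G42090, a gene of unknown function, had 179, 209 and 247 in the overexpressors and 0.667, 2.12 and 4.82 in their wild type, and 7.62, 2.80 and 0 in vcs-6 against 0, 0 and 2.74. It was high in both overexpression lines and near 0 in every other library, and the difference was -5.06 ± 0.83 (adjusted p = 9.7e-05). CRK5 behaved differently: the overexpressors had 46.7, 66.6 and 115 against 19.3, 25.4 and 12.5, and vcs-6 had 142, 110.2 and 153.2 against 102, 127 and 168. All 6 libraries of 2019 were thus near or above the overexpressors' highest level, and the gap between the wild types was 2.76 ± 0.34. The difference for CRK5 was -1.80 ± 0.45 (adjusted p = 0.00369), with the lowest 3 libraries those of wild type of 2018. Of the genes that fell, AT5G11330, an FAD-dependent oxidoreductase, had 609, 973 and 1016 in the overexpressors against 2481, 2393 and 2655. In vcs-6 it had 1883, 1913 and 1646 against 2553, 2473 and 2424, lower in each library, a drop that did not pass (-0.46 ± 0.21). The other falls included DI19, a drought-induced zinc finger protein (-0.67 ± 0.13 in the overexpressors, 0.22 ± 0.16 in vcs-6), the La-related RNA-binding protein LARP6a (-0.52 ± 0.12 and 0.02 ± 0.14), the rRNA dimethylase DIM1A (-0.52 ± 0.09 and 0.02 ± 0.11) and the vacuolar ATPase subunit VAB1 (-0.31 ± 0.07 and 0.19 ± 0.08). These were small drops with little spread, and all were chosen after their values were seen.

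Only 11 genes passed in both lines with opposite signs, against 147 with the same sign. AT4G04223, a non-coding RNA, showed the widest contrast. It had 576, 355 and 389.7 in vcs-6 against 43.2, 34.0 and 32.8 in wild type, and 44.4, 58.7 and 85.1 in the overexpressors against 410.2, 703 and 469. The mutant thus stood where the wild type of 2018 stood, and the overexpressors stood near the wild type of 2019. The difference was 6.60 ± 0.31 (adjusted p = 3.5e-11). Since 50.1% of its 31-base words occur in another transcript, its reads are of uncertain origin. AT3G01345 had 546, 527 and 590.2 in vcs-6 against 47.7, 39.0 and 30.1, and 26.95, 32.1 and 37.98 in the overexpressors against 137, 50.8 and 65.5. Here the mutant lay above every other library, and the difference was 5.06 ± 0.41 (adjusted p = 5e-08), or 2.86 with wild type of batches 4 to 9 as the vcs-6 control. TOPP7, a protein phosphatase gene, had 1139.8, 1206 and 1182 in vcs-6 and 1106, 1202 and 1257 in the overexpressors. Those ranges overlapped, and the opposite signs came with wild types at 882, 895 and 888 in 2019 and 1572, 1435 and 1664 in 2018. AT5G21020 (1.59 ± 0.24), the peroxidase gene AT5G47000 (2.30 ± 0.43), AT5G24690 (1.03 ± 0.13) and the deformylase gene AT5G47435 (0.68 ± 0.10) likewise rose in vcs-6 and fell in the overexpressors. The last pair overlap a gene on the opposite strand. AT3G46770, a B3-domain factor, went the other way: it had 0 reads in all 3 vcs-6 libraries, at least 7.87-fold lower than its wild type at 3.41, 10.1 and 12.3, and 10.7, 19.1 and 33.2 in the overexpressors against 6.67, 5.29 and 0.963. With no read in vcs-6 its fitted difference depends on the value added before logs and on the tool, from -8.29 in edgeR to -2.81 with 5 added. EXPB1, a wall-loosening expansin chosen after its values were seen, fell in vcs-6 (-2.92 ± 0.26) and rose in the overexpressors (0.93 ± 0.22).

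**Figure D3:**
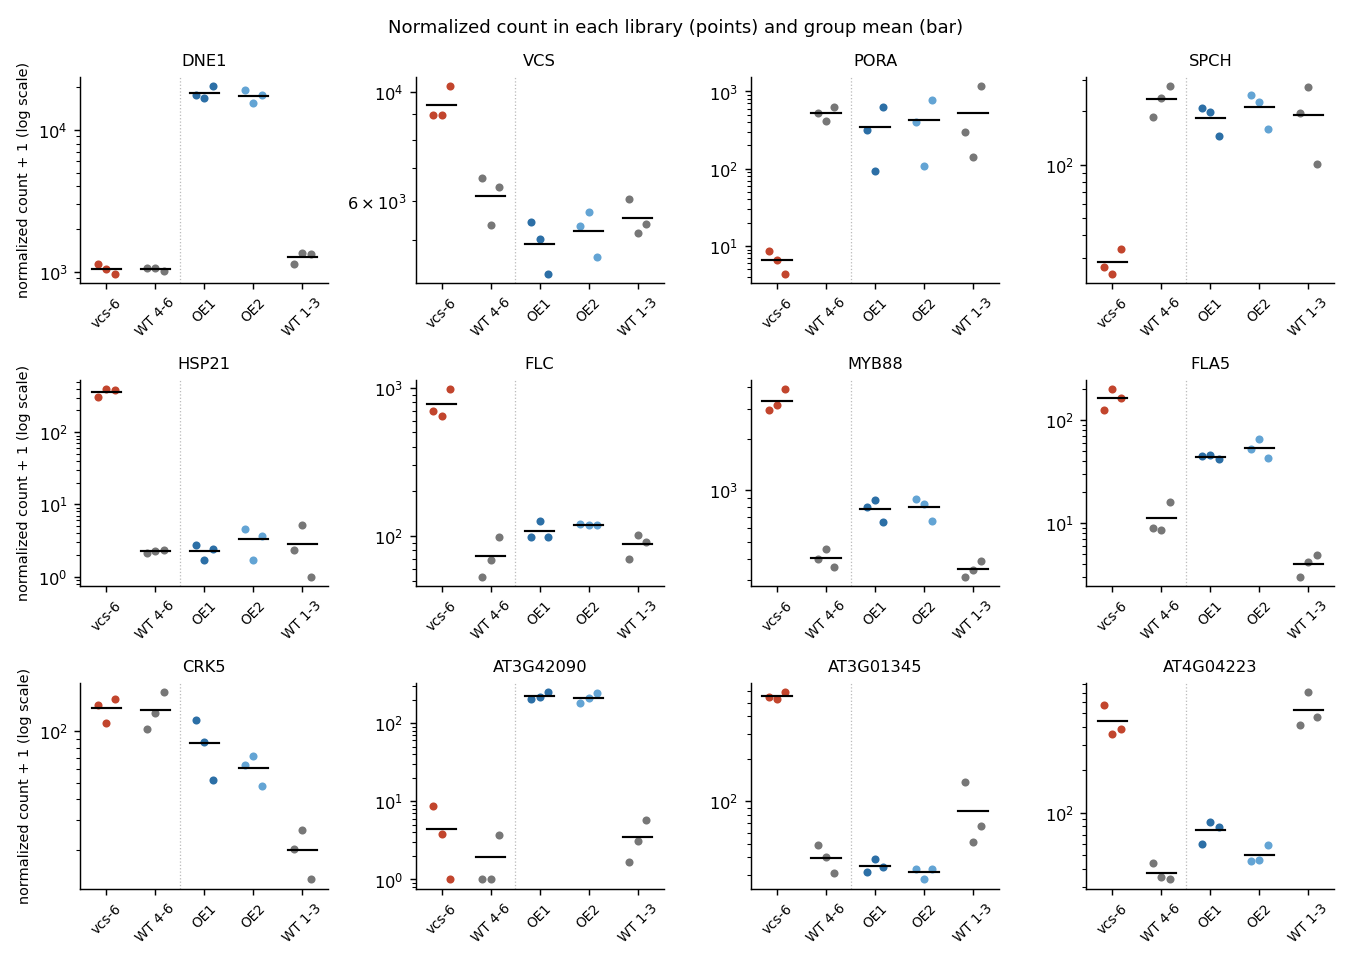
Normalized count plus 1, on a log axis, in each library for 12 genes named in the text; bars are group means and the dotted line parts the 2019 groups (vcs-6, WT of batches 4 to 6) from the 2018 groups (OE1, OE2, WT of batches 1 to 3). DNE1 and AT3G42090 are high in the overexpressors alone, HSP21 and FLC in vcs-6 alone, FLA5 and MYB88 in both, and AT4G04223 is high in vcs-6 and in the wild type of 2018.

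Gene lists by pathway follow, each read against 18.4% higher and 17.5% lower among all genes tested and against a median of 0.00. Where a count in a list is given as 0 in limma, it was also 0 at an unadjusted p under 0.05, in edgeR and in DESeq2, except for 1 seed gene lower at an unadjusted p. The genes listed for mRNA decay passed about as often as all genes tested. Of 24 genes listed under decapping and 5' to 3' decay, the difference was higher for 6 and lower for 3, with a median of 0.03. The 24 include DNE1 itself and SOV, which acts from the 3' end. They also hold AT5G48150 under the name PAT1, a phytochrome signalling gene and not the decapping activator of that name. LSM3A and LSM3B, subunits of the ring that activates decapping, had differences of 1.07 ± 0.19 (adjusted p = 0.00025) and 0.94 ± 0.14 (adjusted p = 4.6e-05), joined by LSM6A (0.71) and LSM4 (0.58). LSM3A had 3201, 2380.5 and 2839 in vcs-6 against 1096, 1391 and 1196, and 1632, 2098 and 2322 in the overexpressors against 1739.7, 2192 and 1787. The mutant libraries lay above all others for LSM3A. SOV, a 3' to 5' exonuclease, passed in both lines, at 1.44 ± 0.15 in vcs-6 and 0.61 ± 0.13 in the overexpressors. Lower differences besides DNE1 were those of the helicase gene RH6 (-0.59) and of VCR, the close relative of VCS (-0.44). The lower count was 5 without replicate 3 of DNE1_OE1, with edgeR and with the batch as a block. Here and for the lists that follow, 1 alternative takes wild type of batches 4 to 9, in place of batches 4 to 6, as the control of vcs-6.

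Genes for photosynthesis lay almost as a whole on the lower side. Of 41 nuclear genes for photosystem subunits, antenna proteins and Rubisco, the difference was lower for 37 and higher for 0, with a median of -1.80 (vcs-6 effect -1.73, overexpression effect 0.13). RBCS2B, a small subunit of Rubisco, had 9645, 8327 and 14910.4 in vcs-6 against 111349, 101190.0 and 130391, and 95075, 117000.5 and 153038 in the overexpressors against 137273, 199955 and 84402. Every mutant library lay below every other library. The difference was -3.26 ± 0.43 (adjusted p = 9.4e-06), although 37.1% of its words are shared with a related gene. PSAK of photosystem I (-1.94 ± 0.28) and PSBP-1 of photosystem II (-1.90 ± 0.27) moved by similar steps. Summed counts of 5 leaf mesophyll markers ran from 760349 to 1003374 in vcs-6 and from 1600329 to 1946140.5 in its wild type. These markers are genes of this list or of that of chlorophyll synthesis, so the sum is no separate support. Their part in these differences was not tested. In RNA from whole seedlings, fewer cells of a type and less RNA per cell cannot be told apart.

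All 20 genes of chlorophyll synthesis tested had a lower difference, with a median of -1.31, and 19 of them also fell in vcs-6. The count ran from 16 to 20 when 1 library was left out. The protochlorophyllide reductases differed most. PORA had 7.62, 5.60 and 3.38 in vcs-6 against 519.5, 414 and 629, and 91.4, 359.8 and 774 in the overexpressors against 299.5, 141 and 1159.9. The mutant was below every other library and the 2018 libraries were spread widely, and the difference was -6.03 ± 1.10 (adjusted p = 0.00027). PORB followed at -3.44 and PORC at -2.01 ± 0.19 (adjusted p = 2.7e-07). HEME1 and HEMB1, enzymes of the early tetrapyrrole steps, had -1.63 ± 0.15 and -1.04 ± 0.13, and CHLD, a subunit of magnesium chelatase, -1.28 ± 0.17. CRD1 (CHL27), a subunit of the cyclase that closes the fifth ring, had 45492, 40459 and 46061 in vcs-6, 127158, 108938 and 97303 in its wild type, 43762, 67021 and 117303 in the overexpressors and 50077, 35197 and 98803 in theirs. Its mutant libraries lay below the wild type of their own year but within the range of the 2018 libraries, with a difference of -1.65 ± 0.52 (adjusted p = 0.0184). Its promoter is shown as one that holds a G-box, the letters CACGTG bound by light-signalling factors of the bZIP and bHLH families. Of the 20 promoters 1 had it within 250 bases of the annotated start, against 5.39% of 37897 promoters, so the list as a whole does not share it. The sequence is from RefSeq (TAIR10.1), chr3:21076255-21076504 on the + strand, with the G-box in capitals 52 bases before the start.
CRD1: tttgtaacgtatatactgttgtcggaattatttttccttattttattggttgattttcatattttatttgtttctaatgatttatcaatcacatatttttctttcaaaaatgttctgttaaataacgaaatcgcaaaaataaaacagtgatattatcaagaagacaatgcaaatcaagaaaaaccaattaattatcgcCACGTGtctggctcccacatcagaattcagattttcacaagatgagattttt

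Genes of the stomatal lineage were mostly lower as well. Of 17 genes the difference was lower for 15, higher for MYB88 and not called for FLP, with a median of -1.98 (-2.03 in vcs-6, -0.11 in the overexpressors). SPCH, the bHLH factor that starts the lineage, had 25.4, 23.3 and 32.7 in vcs-6 against 184, 237 and 274, and 143, 202 and 244 in the overexpressors against 193, 271 and 99.2. MUTE, which ends the self-renewing divisions, had 3.81, 2.80 and 3.38 against 43.2, 49.1 and 53.3, and 52.1, 81.9 and 93.9 against 104, 90.0 and 70.3. Both genes were lower in every vcs-6 library than in any other, with differences of -3.19 ± 0.37 and -3.30 ± 0.42. FAMA, the guard cell factor (-2.11 ± 0.24), SCRM2, the partner of all these factors (-1.92 ± 0.13), the polarity protein gene POLAR (-2.40 ± 0.24) and the receptor kinase gene ER (-1.56 ± 0.16) also had lower differences. FLP, the partner of MYB88, rose in both lines, by 1.23 ± 0.17 in vcs-6 and 0.74 ± 0.15 in the overexpressors, and its difference was 0.48 ± 0.23 (adjusted p = 0.108). The higher count was 2 with the batch as a block and with wild type of batches 4 to 9 as control. The summed count of 8 stomatal markers ran from 340.7 to 360.9 in vcs-6, 1619.9 to 2072 in its wild type, 2260.1 to 3059.5 in the overexpressors and 2381 to 2929 in their wild type. That sum rests on genes of the same list and is no separate support.

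Early auxin response genes were lower too. Of 30 Aux/IAA and SAUR genes, the difference was lower for 18 and higher for 0, with a median of -1.47, and a count from 14 to 20 when 1 library was left out. SAUR64 had 15.2, 6.53 and 11.3 in vcs-6 against 396, 79.3 and 268, and 122.7, 185 and 434 in the overexpressors against 163, 187 and 328. Every mutant library was below all others, and the difference was -4.05 ± 0.73 (adjusted p = 0.00024). SAUR66 (-3.46 ± 0.70) and SAUR68 (-4.05 ± 0.72), growth-promoting small proteins of the same family, were similar, though SAUR68 shares 31% of its words with a relative. IAA14, a repressor of auxin response in root branching, had a difference of -2.48 ± 0.56 (adjusted p = 0.00188).

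Small heat shock proteins lay on the higher side. Of 13 genes the difference was higher for 10 and lower for 0, with a median of 3.09 (4.27 in vcs-6, 1.11 in the overexpressors). All 13 rose in vcs-6, and 1, HSP17.6A, also rose in the overexpressors. HSP21, the chloroplast member, had 309, 391 and 384 in vcs-6, while wild type of that year had 1.137, 1.26 and 1.37, from 3 reads in all. The overexpressors ran at 0.703, 1.56 and 3.55 and their wild type at 1.33, 4.24 and 0. The transcript was thus close to the floor in every library but those of vcs-6, and the fitted difference of 7.14 ± 0.74 (adjusted p = 7e-07) depends on the value added before taking logs. HSP22.0, of the endomembrane system, had 1421, 1836 and 1679 against 6.82, 25.2 and 17.78, and 0.888, 3.89 and 11.7 against 0.667, 2.12 and 0.963. HSP18.2 had a difference of 3.48 ± 0.39 (adjusted p = 1.5e-06) and HSP17.6B of 3.09 ± 0.44 (adjusted p = 2.2e-05). HSP17.4 rose in vcs-6, at 663, 927 and 935 against 40.9, 15.1 and 36.9, but its difference did not pass (2.60 ± 1.15, adjusted p = 0.0859). Its overexpressor libraries ran at 1.74, 14.2 and 30.5 against 0.667, 0 and 8.67, a spread that overlaps the wild type of 2019. Both promoters are shown because they hold the heat shock element in the form GAANNTTC, the site of heat shock factors, and yet one gene passed and the other did not. Of the 13 promoters 4 held it within 250 bases, against 9.44% of 37897 promoters. Its share was similar in the lists of phosphate starvation (8 of 24), salicylic acid defence (6 of 18) and rapid touch and wound (6 of 21). In every other list it was at most 15%, so the element does not mark this list alone. The sequences are from RefSeq (TAIR10.1), chr4:13819972-13820221 on the - strand for HSP21, with the element in capitals 100 bases before the start, and chr3:16984868-16985117 on the - strand for HSP17.4, with elements 99 and 18 bases before it.
HSP21: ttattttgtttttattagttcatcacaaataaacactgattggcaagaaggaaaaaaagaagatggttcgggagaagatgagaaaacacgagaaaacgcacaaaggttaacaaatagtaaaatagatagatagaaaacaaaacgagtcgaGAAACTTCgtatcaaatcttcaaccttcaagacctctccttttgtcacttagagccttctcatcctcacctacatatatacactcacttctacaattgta
HSP17.4: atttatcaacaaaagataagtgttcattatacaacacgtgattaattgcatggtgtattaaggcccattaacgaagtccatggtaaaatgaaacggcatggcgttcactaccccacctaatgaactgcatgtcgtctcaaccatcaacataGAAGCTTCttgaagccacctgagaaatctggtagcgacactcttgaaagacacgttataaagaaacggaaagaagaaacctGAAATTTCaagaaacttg

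Heat shock factors and large chaperones gave fewer calls. Of 23 genes the difference was higher for 5 and lower for 1, with a median of 0.63. HSFB1, a class B factor, had 2123, 2493 and 2518 in vcs-6 against 506, 780.4 and 513, and 264, 383 and 469 in the overexpressors against 302, 442 and 342. The mutant was above all other libraries, and the difference was 1.95 ± 0.29 (adjusted p = 3.8e-05). The co-chaperone gene ROF2 had 1.37 ± 0.30 and HSP70B 0.79 ± 0.26, whereas HSFA1A, a master regulator of the response, had -0.57 ± 0.17. The count of higher genes depended on single libraries. It was 2 without the third vcs-6 column, and 3 without the first, without any 1 wild-type library of batches 4 to 6, without wild type of batch 2 or without replicate 1 of DNE1_OE1. With the batch as a block it was 9, and with wild type of batches 4 to 9 as control it was 8. The lower count was 0 with scaling by library size only and with DNE1_OE2 alone, and 2 with the block, without wild type of batch 3 and without all of batch 3.

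Cytosolic ribosomal protein genes leaned higher. Of 26 genes listed the difference was higher for 12 and lower for 1, with a median of 0.61 (0.64 in vcs-6, -0.01 in the overexpressors). The lower one was RPL27 (AT5G40950, -1.38), which encodes a plastid ribosomal protein and so is no exception among the cytosolic ones. The counts and medians include it. RPS5A had 51958, 47107 and 48459.5 in vcs-6 against 18391, 17946 and 20531, and 27963, 30297 and 35854 in the overexpressors against 36059.8, 35653 and 27791. The mutant was highest and the wild type of 2019 lowest, with the 2018 libraries between them. The difference was 1.47 ± 0.15 (adjusted p = 5.7e-07). RPS18C (1.54 ± 0.16) and RPS6B (1.06 ± 0.16) had the same order of groups, while for RPS15A (1.27 ± 0.20) the 2018 libraries reached the mutant's level. The promoter of RPS5A is shown as one that holds the telo-box AAACCCTA, an element frequent in plant ribosomal protein genes. Of the 26 promoters 4 held it, against 4.75% of all, and 13 held the site II letters TGGGCC, against 11.4%. Site II was more frequent still in the small heat shock list (9 of 13) and the replication list (10 of 16). The RPS5A sequence is from RefSeq (TAIR10.1), chr3:3779546-3779795 on the - strand, with the telo-box in capitals 13 bases before the start.
RPS5A: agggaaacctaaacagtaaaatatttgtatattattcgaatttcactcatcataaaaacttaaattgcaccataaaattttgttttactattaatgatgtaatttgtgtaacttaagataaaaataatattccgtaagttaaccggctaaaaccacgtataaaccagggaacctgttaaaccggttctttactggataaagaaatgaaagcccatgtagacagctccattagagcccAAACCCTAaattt

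Genes of the shoot meristem and organ boundaries leaned higher. Of 18 tested the difference was higher for 8 and lower for 3, with a median of 0.78. WUS, the factor that maintains the stem cell niche, had 38.1, 35.5 and 42.8 in vcs-6 against 0, 3.78 and 1.37, and 2.81, 4.46 and 5.51 against 1.33, 2.12 and 3.85. Levels outside vcs-6 were a few counts in each library, and the difference was 3.43 ± 0.78 (adjusted p = 0.00194). The boundary gene CUC1 had 2.31 ± 0.52, and the PLETHORA genes PLT7 and PLT3, which act in phyllotaxis, had 2.201 ± 0.34 and 1.23 ± 0.25. CLV1, the receptor kinase that restricts WUS, had a lower difference (-1.26 ± 0.23), as did AHP6 (-2.42) and ANT (-0.87), and the lower count was 1 without wild type of batch 3. The summed count of 6 shoot meristem markers ran from 1663 to 1939.7 in vcs-6 and 918.6 to 1347 in its wild type, but from 1533 to 1925 in the wild type of 2018. These markers too are genes of the same list.

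Cell cycle genes gave calls on both sides. Of 20 mitotic genes the difference was higher for 6 and lower for 1, with a median of 0.28. CDKB2;2, a kinase of the G2 to M transition, had 2543, 2822 and 2964 in vcs-6 against 557, 686 and 655, and 953, 1327 and 1438 against 1213, 1542 and 810.2, a difference of 2.01 ± 0.25 (adjusted p = 4.8e-06). The kinase gene AUR1 had 1.07 ± 0.23 and CDKB2;1 0.76 ± 0.20, while CYCA2;3, which promotes mitotic cycles over endocycles, had -0.96 ± 0.18. Of 16 replication genes the difference was higher for 1, the sliding clamp gene PCNA2 (0.98 ± 0.21), and lower for 4 helicase subunits, MCM6 (-1.10 ± 0.29), MCM3, MCM2 (-0.68 ± 0.23) and MCM7 (-0.67 ± 0.23, or -0.39 without the first vcs-6 column). That lower count was 1 without wild type of batch 1, 2 without wild type of batch 3, batch 5 or batch 6, 1 without the first vcs-6 column, and 1 with scaling by library size only, with DNE1_OE1 alone and with wild type of batches 4 to 9 as control. Without all of batch 3 it was 2, and with the batch as a block it was 7. The higher count was 2 with the block, with wild type of batches 4 to 9 as control and without wild type of batch 3.

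Phosphate starvation genes had a difference that was higher for 8 of 23 and lower for 2, with a median of 0.68. PAP17, an acid phosphatase induced by phosphate shortage, had 5291, 7189 and 4443 in vcs-6 against 499, 1096 and 666, and 406, 1094 and 1605 against 562, 1365 and 409. The mutant was above all other libraries, and the difference was 2.42 ± 0.63 (adjusted p = 0.00524). The phosphate transporter gene PHT1;5 had 2.42 ± 0.56 and the phosphatase gene PAP10 0.89 ± 0.17. PHR1, the factor that drives the response, had -0.63 ± 0.14, and SQD2, of sulfolipid synthesis, -0.59. The lower count was 1 without wild type of batch 1, 3 or 4, without the first vcs-6 column, without all of batch 3, with scaling by library size only, with DNE1_OE2 alone and with the 15 libraries alone.

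Seed genes were high in the mutant and spread widely elsewhere. Of 14 seed storage, oleosin and embryo genes tested of 19 listed, the difference was higher for 7 and lower for 0, with a median of 2.78. EM1, a late embryogenesis abundant protein, had 164, 172 and 285 in vcs-6 against 1.137, 5.03 and 4.104, and 1.41, 1.96 and 4.13 against 0.667, 9.53 and 5.78, a difference of 6.21 ± 1.07 (adjusted p = 0.00016). ABI3, a master regulator of seed maturation, had 24.1, 15.9 and 25.9 in vcs-6 against 1.137, 3.78 and 5.47. CRA1 (cruciferin), by contrast, ran at 2023, 1214 and 4888 in vcs-6, 541, 958 and 683 in its wild type, 4.34, 8.86 and 865 in the overexpressors and 204, 900.0 and 253 in theirs. Its overexpressors covered a range wider than the difference itself (5.95 ± 1.83, adjusted p = 0.0157), and neither effect passed alone. OLEO2, an oil body protein, had 5.57 ± 1.34. The summed count of 11 seed markers ran from 2011 to 9497 in vcs-6, 711.7 to 1328 in its wild type, 25.2 to 150.5 in DNE1_OE1, 84.4 to 1349.8 in DNE1_OE2 and 245.5 to 1276 in the wild type of 2018. All 11 are genes of the seed list, so the sum is no separate support. Without wild type of batch 2 the higher count was 4, without the second vcs-6 column 4 and without the third 3, and with DNE1_OE2 alone it was 4. The lower count was 1 with the batch as a block and without replicate 1 of DNE1_OE2, wild type of batch 3 or wild type of batch 4.

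Flowering regulators moved in opposed ways. Of 21 genes the difference was higher for 1, FLC, and lower for 7, with a median of -0.56. FLC, the repressor of flowering, had 699, 646 and 974 in vcs-6 against 52.3, 68.0 and 97.1, and 97.3, 118 and 124 in the overexpressors against 69.4, 101 and 90.6. All 3 mutant libraries stood above all 12 others, and the difference was 3.04 ± 0.47 (adjusted p = 5.2e-05). FLC is also transcribed on its antisense strand, and reads of the strands could not be separated here. FUL, a MADS factor of the floral transition, had 7.62, 3.73 and 9.01 against 43.2, 57.9 and 73.9, and 116, 183 and 198 against 118, 187 and 212, a difference of -2.95 ± 0.41. SPL15 (-2.27 ± 0.34) and SEP4 (-1.26 ± 0.20) were also lower, with SPL5, SPL9, SOC1 and LFY. LFY had no read in vcs-6, at least 7.82-fold lower than its wild type. The higher count was 2 without replicate 3 of DNE1_OE2, without the third vcs-6 column and without all of batch 3. The summed count of 7 flower markers ran from 212.9 to 261.7 in vcs-6 and 109.1 to 131.3 in its wild type, from 249.4 to 815.9 in the overexpressors and from 85.8 to 358.4 in theirs. All 7 are genes of the flowering list, so the sum is no separate support.

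Small RNA factors were divided. Of 20 genes the difference was higher for 2 and lower for 3. AGO9, an Argonaute of the ovule, had 332, 246 and 213 in vcs-6 against 18.19, 10.1 and 23.3, and 37.2, 44.1 and 124 against 38.7, 34.9 and 39.5, a difference of 3.51 ± 0.49 (adjusted p = 1.9e-05). AGO2, of antiviral defence, had 1.06 ± 0.24. RDR6, the polymerase that makes double-stranded RNA from aberrant transcripts, had -0.83 ± 0.14 and AGO4, of DNA methylation, -1.01 ± 0.16, with DCL3 also lower (-0.67).

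Defence and stress lists gave few calls or calls on both sides. Of 18 salicylic acid genes the difference was higher for 3 and lower for 4. PBS3, an enzyme of salicylic acid synthesis, had 1.56 ± 0.42, whereas ALD1, of pipecolic acid synthesis (-3.77 ± 0.67), and the regulators WRKY54 (-3.54 ± 0.89) and NIMIN1 (-3.60 ± 1.07, or -2.34 with 5 added before logs) were lower. The higher count was 1 without wild type of batch 1 or batch 2, 5 with 5 added before logs and 6 with wild type of batches 4 to 9 as control, and the lower count was 2 without the first vcs-6 column. Of 24 jasmonate genes 2 were lower, the storage protein gene VSP2 (-2.95 ± 0.54) and the synthesis gene AOS (-1.38 ± 0.47), with 1 lower without wild type of batch 1, without the first vcs-6 column or with DNE1_OE1 alone, and 1 higher without wild type of batch 5. With the batch as a block 4 were lower. Of 22 cold, drought and abscisic acid genes 3 were higher, among them LTI30 (2.15 ± 0.33) and RD20 (2.01 ± 0.64), and COR15B was lower (-3.13 ± 0.54); with the batch as a block 5 were higher and 2 lower. The higher count was 5 with DESeq2 and 1 with DNE1_OE2 alone, and the lower count was 2 without wild type of batch 3. KIN1, a cold-induced gene of this list, rose in both lines (2.85 ± 0.36 in vcs-6, 1.69 ± 0.31 in the overexpressors), with a difference of 1.16 ± 0.47 (adjusted p = 0.0629). Of 21 rapid touch and wound genes the difference passed for none in limma, while the median effect was -0.97 in vcs-6 and -0.80 in the overexpressors; without wild type of batch 5, 3 were higher.

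Metabolic lists gave the rest. Of 19 aliphatic glucosinolate genes the difference was lower for 7 and higher for 0, with a median of -0.75, among them BAT5, a plastid transporter (-1.63 ± 0.46), BCAT4, the first transaminase (-1.38 ± 0.38), IMD1 (-0.96 ± 0.28) and IPMI2 (-1.02 ± 0.33). The lower count was 4 without wild type of batch 2, 3 without the first vcs-6 column and 12 with the batch as a block. Of 15 superoxide dismutase and copper genes 4 were higher and 4 lower: MSD1, the mitochondrial dismutase, had 0.94 ± 0.13, and the laccases LAC2, LAC3 and LAC13 had -3.35 ± 0.42, -1.45 ± 0.28 and -1.21 ± 0.24. Of 19 flavonoid genes 2 were higher and 3 lower, with C4H (1.76 ± 0.20) and PAL1 (0.89 ± 0.28), of the entry into phenylpropanoids, against 4CL3 (-1.82 ± 0.47) and the regulator EGL3 (-1.42 ± 0.33). The higher count was 1 without wild type of batch 2 or 6 or without the second vcs-6 column, and 5 with the batch as a block. Of 19 iron deficiency genes 1 was higher, the transporter gene OPT3 (1.52 ± 0.52), and 1 lower, the regulator FIT (-1.61 ± 0.44). OPT3 was lost without wild type of batch 1, 2 or 4 and without the second or the third vcs-6 column and with DNE1_OE2 alone, and the lower count was 2 without wild type of batch 2. With the batch as a block 2 were higher and 4 lower, and with wild type of batches 4 to 9 as control 2 were higher. Of 18 root genes 2 were higher, PRP1 (1.62 ± 0.59) and SHR (0.92 ± 0.33), and 2 lower, NRT2.1 (-3.62 ± 0.85) and SCR (-0.40 ± 0.14). The higher count ran from 0 to 5 when 1 library was left out, with 0 without wild type of batch 1, 2 or 5, replicate 3 of DNE1_OE2 or the third vcs-6 column, and 5 without wild type of batch 3. It was 4 with the batch as a block and without all of batch 3, 1 with DNE1_OE1 alone or with wild type of batches 4 to 9 as control, and 0 with DNE1_OE2 alone. The lower count was 1 without the third vcs-6 column, with scaling by library size only and with DNE1_OE2 alone. The summed count of 12 root markers ran from 5604 to 10336 in vcs-6, 4609 to 7236 in its wild type and 1603 to 2972 over all 2018 libraries. The 2019 groups overlapped in it and lay above every 2018 library. These 12 markers are genes of the root list as well.

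**Figure D4:**
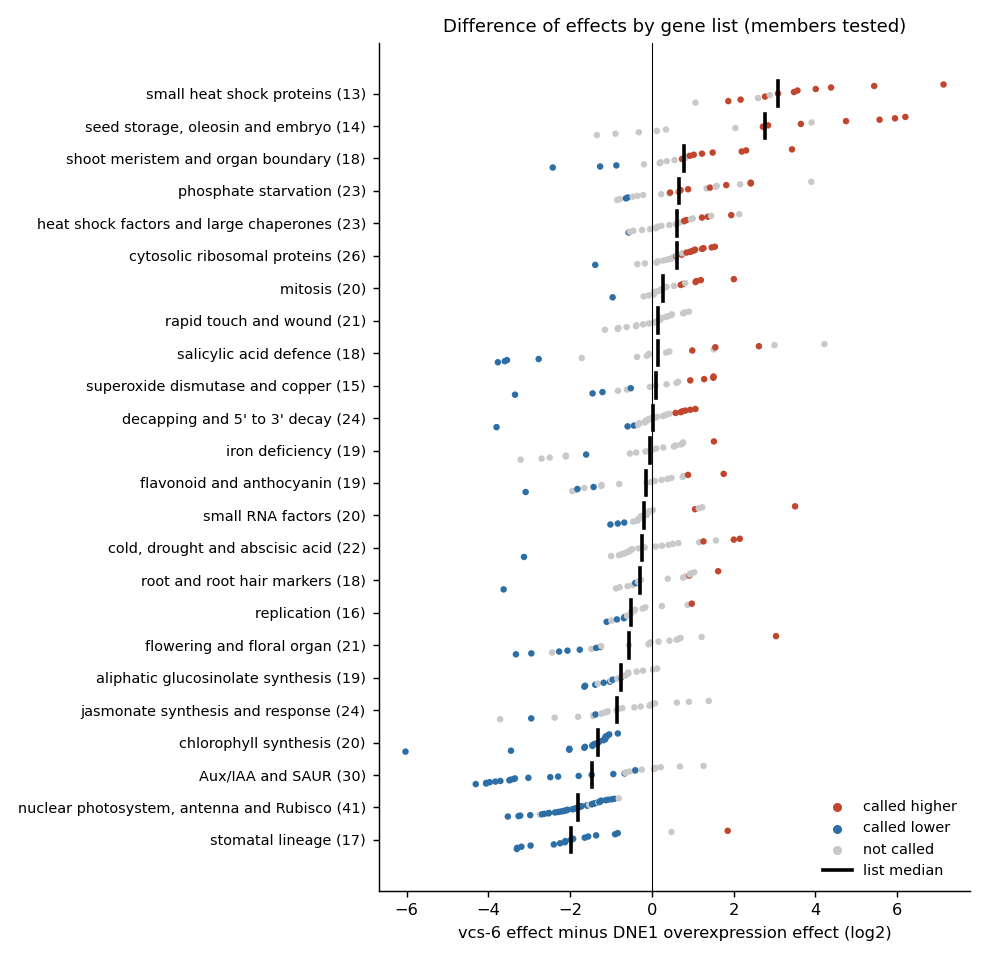
The vcs-6 effect minus the overexpression effect (log2, horizontal axis) for each member tested of 24 gene lists, ordered by median (black bar), with the number tested in brackets. Red points passed higher, blue lower and grey did not pass; the stomatal lineage (median -1.98) and the photosystem list (-1.80) lie at one end and the small heat shock proteins (3.09) at the other.

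Beyond the lists, the largest differences were of the vcs-6 effect. Among the 12 highest, CYS2, a cysteine protease inhibitor, had 3259, 2417 and 2184 in vcs-6 against 35.2, 44.1 and 47.9, and 25.2, 32.8 and 48.9 against 36.7, 27.5 and 43.4. Its 3 mutant libraries were far above 12 others that lay together, and the difference was 5.98 ± 0.32 (adjusted p = 1.7e-10). TH8, a cytosolic thioredoxin, had 11386, 8603 and 7394 against 88.7, 157 and 176, and 75.5, 90.5 and 173 against 54.7, 150.3 and 41.4 (5.53 ± 0.85). The defensin-like gene AT3G59930 (6.87 ± 0.88, 34% of its words shared), the cysteine protease gene AT1G29090 (6.97 ± 1.06), the exonuclease family gene AT3G27970 (6.50 ± 0.92) and CSLG2, of the cellulose synthase-like family (5.53 ± 1.68), were also far lower outside vcs-6. For AT1G29090 the overexpressors and their wild type held 3 reads each, so that value too depends on the value added before logs. MRD1 and AT3G21380 entered for another reason. MRD1 had 1997, 2030.4 and 2076 in vcs-6, 1469, 1314 and 38.3 in its wild type, 3.59, 12.7 and 59.96 in the overexpressors and 42.7, 2359 and 53.0 in theirs. It was high in 1 wild-type library of 2018 and low in 1 of 2019, so its wild types were not uniform, and neither effect passed alone. AT3G21380, a mannose-binding lectin gene, fell in the overexpressors (-3.93 ± 0.85) and did not pass in vcs-6 (1.61 ± 0.98). The highest also held HSP21, AT4G04223, CRA1 and OLEO2, given above.

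Among the 12 lowest, 3 lipid-transfer protein genes, AT4G22485, AT4G22490 and AT4G22505, had differences of -6.22 ± 0.70, -6.17 ± 0.42 and -6.36 ± 0.68. AT4G22490 had 82.6, 138 and 80.0 in vcs-6 against 6852, 5513 and 11361, and 6197, 9513 and 14490.1 against 11726, 9291 and 9389.7, so the mutant was far below 12 libraries of similar level. The thionin gene AT1G66100 had 47.0, 51.3 and 52.9 against 4431, 2623 and 3736, and 2517, 4639 and 15184 against 1878, 1509.8 and 5362. It fell in vcs-6 and its estimate in the overexpressors was positive without passing (1.23 ± 0.49), which gave the lowest difference of all named genes (-7.32 ± 0.75, adjusted p = 5.6e-07). AT3G16670, an extensin-like protein gene (-6.53 ± 0.51), the copper amine oxidase gene AT1G31690 (-6.19 ± 0.78), the oxidoreductase gene AT1G12570 (-6.14 ± 0.40), the methyltransferase gene AT3G21950 (-5.90 ± 0.42), the glutaredoxin gene AT2G47880 (-5.76 ± 0.48) and AT4G13575 (-6.23 ± 0.82) completed the group with PORA and LHCB2.3. LHCB2.3, a light-harvesting protein, had 1642, 1029.7 and 1468 in vcs-6 against 55778, 45300.5 and 39681, and 4613, 16890.3 and 64588 against 6675, 2266 and 33762. Its 2018 libraries of batch 3 were the high ones in each group, and its difference carried a large error (-6.23 ± 1.36, adjusted p = 0.00133). Of the genes in both sets, CYS2, MRD1, OLEO2, LHCB2.3, AT4G22485, AT4G22505, AT1G12570 and AT2G47880 overlap a gene on the opposite strand, so their reads could include those of the partner gene, since no source used here says whether counting was by strand. An opposite-strand partner also overlaps these genes named above: PORB, PORC, CRD1, PSBP-1, POLAR, FLP, SAUR64, DCL3, LSM3B, LSM6A, RH6, HSP17.4, RPS18C, PLT3, CYCA2;3, CDKB2;1, CDKB2;2, AUR1, PCNA2, MCM7, PAP10, PAP17, PHR1, SPL5, SPL9, SPL15, FLC, COR15B, BCAT4, IMD1, RLP23, RLP41, RLP50, AGAL2, AT1G64795, AT3G29644, AT5G24690 and AT5G47435.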

How the data were processed

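Poly(A) RNA from seedlings was made into libraries with the Lexogen SENSE mRNA-Seq kit after TRIZOL extraction, per the labels' protocols. The submitters' processing notes name TAIR10, the aligner HISAT2 2.1.0, the counter HTSeq and bcl2fastq 2.17.1.14. Per the file header, DESeq2 1.24.0 made the deposited table. The strand setting and the annotation release are not given in the sources used here, which matters for overlapping genes. The authors deposited normalized counts (a signal, not whole reads), normalized apart for 2018 and 2019, beside their own log2 fold changes and adjusted p-values, which are not used in the results.

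Within a library, deposited values were whole multiples of 1 step, for 100% of values within 0.01, so whole reads were recovered. They were put on a common scale by median-of-ratios factors over all 24 libraries (21609 genes). Of 27782 genes, 25914 were listed in both years, and 27574 identifiers matched the reference. Effects were fitted with limma 3.58.1 in R 4.3.3 (trended variance, 24 libraries in 8 groups) on log2(normalized count + 1), for genes with at least 10 in 3 of the 15 libraries, adjusted over 22054 genes. edgeR 4.0.16 and DESeq2 1.42.0 on the recovered reads were alternatives. On simulated data, with 200 genes changed in vcs-6 alone, the test recovered 34 of 100 genes changed by a log2 of 1. It recovered 84 of 100 changed by 2, with 5 false calls among 21738 genes. Far more genes passed in the real data, so the adjusted cutoff was stricter in the simulation. These rates therefore do not carry over to the real test. P-values measure the spread between these libraries.

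The comparison, the gene lists and the settings were chosen with earlier results of these data known. Named genes are DNE1 and VCS, the 12 highest and 12 lowest differences among called genes with a mean of at least 50 whose line libraries all lay on one side of their wild type, 8 genes called with opposite signs, and up to 4 called genes a list by smallest p. Other genes given with values were chosen after their values were seen. Genes sharing over 20% of 31-base words with another transcript are marked as uncertain. The labels give the batch, and same-batch libraries of batches 1 to 3 deviated together (r 0.13 to 0.66 over 18 pairs, against -0.55 to 0.20 for different batches), so batches pair those libraries. The main fit used group means with no batch term and left that pairing out. It entered only in the setting with the batch as a block. Promoters are 250 bases before the annotated start, both strands searched.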

Additional observations from a re-analysis of the deposited data

Results flagged for a closer look

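For 11 genes the effects of vcs-6 and of DNE1 overexpression passed with opposite signs and the difference between them passed as well. The 8 given here are those for which the larger of both adjusted p was smallest. The difference was 6.60 for AT4G04223, 5.06 for AT3G01345, 2.30 for AT5G47000, 1.59 for AT5G21020, 1.03 for AT5G24690, 0.80 for TOPP7, 0.68 for AT5G47435 and -5.24 for AT3G46770, all log2. Over the settings tried the value ran from 2.86 to 5.36 for AT3G01345 and from -8.29 to -2.81 for AT3G46770, which had no read in vcs-6. The wild types of the 2 years differed for several of them, and what part that played was not tested.

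Outside the comparison, 1208 genes are listed in the 2019 data only, so no difference of effects can be formed for them. For 13 of these every vcs-6 library had at least 5 normalized reads while wild type of batches 4 to 6 had at most 3 reads. The 5 given here are those whose lowest vcs-6 library was highest. Their vcs-6 means were 33.0 normalized counts for AT5G44950, an F-box family gene, and 28.6 for AT1G63210, annotated as an Spt6-type elongation factor. The others had 19.5 for AT3G19055, 16.6 for AT1G52900, a TIR domain gene, and 14.0 for the MADS box gene AGL49. Wild type had 0 or 1 read in all for each of these 5 genes.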

How the results depend on the processing

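The number of genes with a called difference ran from 6826 to 7972 when 1 library was left out, from 3463 to 4147 higher and from 3361 to 3848 lower. It was 7841 with edgeR, 8288 with DESeq2 and 9443 with the replicate block for batches 1 to 3 and 7 to 9. Requiring a log2 change above 1 left 1132 differences (604 higher, 528 lower), 2171 vcs-6 effects (1245 higher, 926 lower) and 11 overexpression effects (10 higher, 1 lower), since that test asks for more. The overexpression calls were the unstable arm: 434 (312 higher, 122 lower) with DESeq2, 514 (401 and 113) with the block, 93 (74 and 19) with DNE1_OE1 alone, 95 (85 and 10) with DNE1_OE2 alone, 82 (69 and 13) without batch 3, and 19 lower with the 15 libraries alone, where fewer samples were fitted. Leaving out 1 library gave 65 to 231 called, 57 to 178 higher and 8 to 53 lower. No named gene changed sign in the settings run, but lower calls outnumbered higher ones with edgeR (3753 higher, 4088 lower) and without the third vcs-6 column (3563 and 3757). Apart from the log2 minimum, named genes held their call in 3391 of the checks and lost it in 77, and the causes were not tested. The vcs-6 columns carry no batch, so the block pairs no vcs-6 library. At 3 libraries a group, simulated log2 changes of 1 were recovered for 34 of 100 genes. That simulation changed 200 genes only, under a stricter adjusted cutoff than the data had, so its rate does not carry over. A missing call is still no showing that effects are equal.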
